A study of Homo sapiens with 2 samples.

Results

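The MHC class I pathway was represented by 9 genes, which encode the heavy chains HLA-B, HLA-C, HLA-E and HLA-F, the light chain B2M, the transporter subunits TAP1 and TAP2, and the immunoproteasome subunits PSMB8 and PSMB9. They were chosen by name and are 9 of the 19775 genes measured. Every probe set annotated with 1 of these symbols and no other was taken, which gave 23 of 54613 probe sets. The genes were compared between HSC-3 cells on plastic and on Myogel, a gelatinous extract of human uterine leiomyoma. HSC-3 is a cell line from an aggressive human tongue squamous cell carcinoma. On both surfaces the cells carried red fluorescent protein from a lentivirus with a non-coding control sequence, had been selected with puromycin, and grew in medium with serum, ascorbic acid and hydrocortisone. Each surface had 3 wells of 90000 cells, harvested on the next day, and their RNA was pooled onto 1 array. The comparison thus rests on 2 arrays, the labels do not say whether the wells were separate cultures, and no difference has a replicate check or a p-value.

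MHC class I molecules show peptides from inside the cell to CD8+ T cells. The proteasome cuts proteins into peptides, and in cells exposed to interferon the subunits PSMB8 and PSMB9 take the place of constitutive ones. TAP1 and TAP2 pump the peptides into the endoplasmic reticulum, where they are loaded onto a heavy chain paired with B2M before the complex travels to the cell surface. HLA-B and HLA-C are classical heavy chains, whereas HLA-E and HLA-F are non-classical ones with roles in recognition by natural killer cells. Carcinoma cells are known to differ widely in how much of this pathway they express.

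HLA-B and HLA-F had lower values on Myogel than on plastic, by small amounts, while the other 7 genes stayed within FC 1.2 in their brightest probe set. The brightest probe set of HLA-B lay inside the range that held 95% of probe sets of like signal, and that of HLA-F lay below it. All 13 heavy chain probe sets were lower on Myogel as deposited (11 with the median log2 ratio of all probe sets set to 0), with a median log2 fold change (FC, Myogel over plastic) of -0.32 and a range from -1.41 to -0.02. Of the 10 probe sets for the remaining genes, 8 were lower and 2 were higher as deposited, with a median of -0.12, and 5 were lower and 5 higher when that median ratio was set to 0. Of all 54613 probe sets, 59.6% were lower as deposited and 50.0% when that median ratio was set to 0. FC 1.5, the threshold of the study, was reached in the brightest probe set by 0 of 9 genes upwards and 0 downwards, against 9.71% and 17.5% of all genes. These shares come from the plain ratio of the deposited values at any signal. The study reports a smaller share of genes at this threshold from dChip. All 9 class I genes had a geometric mean of 1000 or more, and of 7103 probe sets this bright only 46 passed upwards and 56 downwards. With FC 1.2 or more, HLA-B and HLA-F were lower and 0 genes were higher, against 30.8% of all genes lower and 18.1% higher. Of 4577 genes this bright, 319 were lower and 265 higher by FC 1.2 or more. With the median log2 ratio of all probe sets set to 0, HLA-B stood at -0.21, inside FC 1.2, and HLA-F at -0.41, past it. Counting every probe set, 4 of 23 reached FC 1.5 with the lower value on Myogel and 0 with the higher, against 24.2% and 13.8% of all probe sets. These counts are near the background and 3 of the 4 probe sets had 107 or less on plastic, so nothing is read from them. Since RNA was taken from whole wells, fewer cells expressing a gene and less RNA per cell cannot be told apart. The median log2 FC of the 9 genes was -0.09, against -0.07 for all genes and -0.03 for the 4577 genes of 1000 or more.

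**Figure D1:**
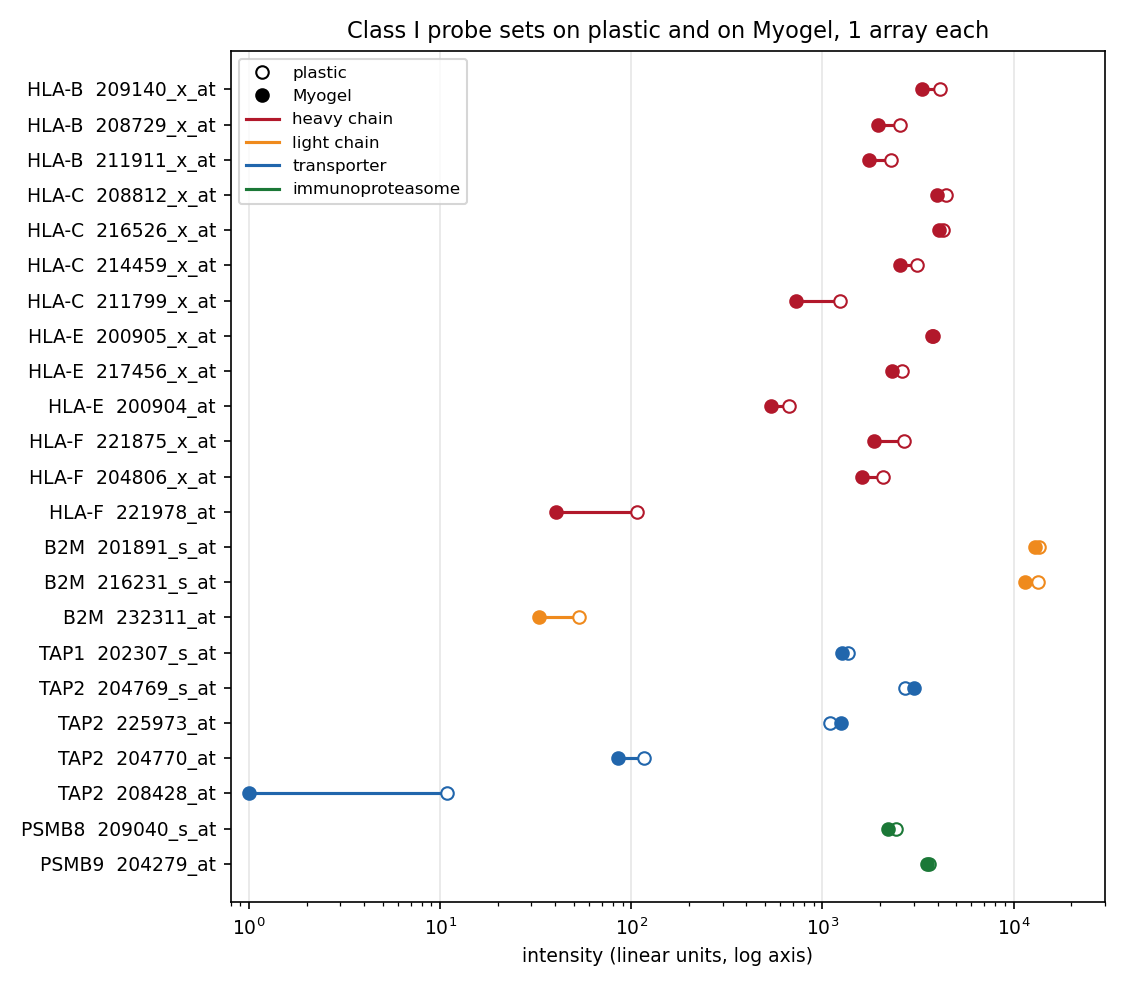
Intensity in linear units (x axis, log scale) of the 23 class I probe sets (y axis, gene and probe set) on plastic (open circles) and on Myogel (filled circles), with 1 array for each surface and the colour giving the role of the gene. In the 13 heavy chain probe sets (red) the filled circle lies to the left of the open one or, for HLA-E 200905_x_at, on top of it, as deposited (11 of 13 when the median log2 ratio of all probe sets is set to 0), while 2 probe sets of TAP2 (blue) have the filled circle to the right.

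Among the classical heavy chains, HLA-B was lower on Myogel in all of its 3 probe sets by nearly the same factor. The brightest, 209140_x_at, read 4112 linear units on plastic and 3311 on Myogel, 1.24-fold lower. The others gave 2561 on plastic and 1948 on Myogel, and 2283 and 1756. The log2 FCs of HLA-B were -0.31, -0.39 and -0.38, so that its probe sets differed by 0.08. For comparison, 95% of the 1000 probe sets nearest in signal to 209140_x_at had a log2 FC between -0.35 and 0.31, and each of the 3 values lay inside the range for its own signal.

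HLA-C, the other classical heavy chain, was less uniform. Its 2 brightest probe sets were nearly level between the surfaces, with 4455 on plastic and 3953 on Myogel for 208812_x_at, and 4284 and 4070 for 216526_x_at, at log2 FCs of -0.17 and -0.07. Another, 214459_x_at, had 3121 on plastic and 2543 on Myogel. The dimmest, 211799_x_at, had 1241 on plastic and 727 on Myogel, 1.71-fold lower. No other class I probe set passed FC 1.5 together with a difference of 100 linear units, and its log2 FC of -0.77 lay below the range for its signal, from -0.55 to 0.53. The probe sets of HLA-C thus disagree on the size of the difference, by up to 0.70 log2 units, and all were lower as deposited, though 216526_x_at stood at 0.03 when the median log2 ratio of all probe sets was set to 0.

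The non-classical heavy chain HLA-F, a surface protein that can also occur without peptide, had the largest difference among the 9 genes in the brightest probe set. For 221875_x_at the intensity was 2657 on plastic and 1855 on Myogel, 1.43-fold lower, and the log2 FC of -0.52 lay below the range of -0.40 to 0.38 for its signal. The second probe set gave 2080.0 on plastic and 1601 on Myogel. The dim 221978_at had 107 on plastic and 40.2 on Myogel, also below its range. HLA-E, which presents signal peptides of other class I heavy chains to natural killer cells, was level in its brightest probe set, with 3789 on plastic and 3736 on Myogel. Its other probe sets were lower, with 2618 on plastic and 2307 on Myogel, and 669 and 536, at log2 FCs of -0.18 and -0.32. Over all members, 3 of 23 probe sets lay below the 95% range for their signal, against 2.16% of all probe sets, and these belonged to HLA-C and HLA-F.

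The heavy chain genes resemble each other in sequence, and 11 of their 13 probe sets are of the _x_at kind, whose probes may bind transcripts of several genes. Their values are therefore not separate measurements of separate genes. The resemblance extends to the promoters. The 250 bases before the transcription start in RefSeq (GRCh38.p14) are shown for HLA-B, HLA-C, HLA-F and TAP2. Each is written from 5′ to 3′ on the strand of its gene, at chr6:31357180-31357429 on the minus strand for HLA-B, chr6:31272093-31272342 on the minus strand for HLA-C, chr6:29723184-29723433 on the plus strand for HLA-F and chr6:32838740-32838989 on the minus strand for TAP2. Capitals mark matches, on either strand, to the core of the interferon-stimulated response element (GAAANNGAA), a kappa B motif (GGGNNTTNC) or an X2 motif (TGACGC). These are reference sequences, and the alleles of HSC-3 were not examined. In the brightest probe set, the log2 FCs were -0.31 for HLA-B, -0.17 for HLA-C, -0.52 for HLA-F and 0.15 for TAP2. Among these values, only that of HLA-F lay outside the range for its signal. The mean over the probe sets of TAP2, into which the floor enters, was -0.89. The sequences are thus not a contrast between lower and higher genes.
HLA-B: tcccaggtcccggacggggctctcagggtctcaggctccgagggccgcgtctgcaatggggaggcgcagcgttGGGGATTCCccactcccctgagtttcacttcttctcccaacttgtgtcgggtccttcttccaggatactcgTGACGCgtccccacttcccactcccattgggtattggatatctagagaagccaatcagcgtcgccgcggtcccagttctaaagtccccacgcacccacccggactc
HLA-C: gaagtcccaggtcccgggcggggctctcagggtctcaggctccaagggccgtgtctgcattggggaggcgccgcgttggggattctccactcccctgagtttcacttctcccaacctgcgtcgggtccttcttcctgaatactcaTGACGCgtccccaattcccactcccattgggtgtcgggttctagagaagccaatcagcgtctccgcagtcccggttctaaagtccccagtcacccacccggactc
HLA-F: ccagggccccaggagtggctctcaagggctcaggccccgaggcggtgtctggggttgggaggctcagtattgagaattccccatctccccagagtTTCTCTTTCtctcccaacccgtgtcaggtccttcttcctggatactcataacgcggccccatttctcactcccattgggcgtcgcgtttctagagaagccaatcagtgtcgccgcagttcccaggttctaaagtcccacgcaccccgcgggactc
TAP2: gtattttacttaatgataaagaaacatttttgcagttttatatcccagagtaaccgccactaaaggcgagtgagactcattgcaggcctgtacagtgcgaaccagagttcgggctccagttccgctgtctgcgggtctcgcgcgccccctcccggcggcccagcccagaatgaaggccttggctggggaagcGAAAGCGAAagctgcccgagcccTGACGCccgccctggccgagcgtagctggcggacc

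The promoters of HLA-B and HLA-C were identical at 226 of 254 aligned positions (89.0%), and those of HLA-B and HLA-F at 205 of 255 (80.4%). HLA-B and TAP2, aligned in the same way, reached 49.8%. Of the 9 genes, 8 had a promoter in the reference table (all except HLA-E), in 10 windows since TAP1 and PSMB8 have 2 each. The kappa B motif matched once in HLA-B, at bases 177 to 169 before the start, and the X2 motif matched once in each of HLA-B, HLA-C and TAP2. The response element core matched once in HLA-F, at bases 155 to 147, and once in TAP2, at bases 58 to 50. B2M and TAP1 held 2 overlapping matches each to this core and 1 to the kappa B motif, which PSMB8 held too. A gamma-activated site (TTCNNNGAA) matched once in TAP1, in its other window, and once in PSMB8, and PSMB9 held none of the 4 motifs. Over all 35116 promoter windows of this length, 6.88% held the response element core, 14.2% the kappa B motif, 7.67% the X2 motif and 6.57% the gamma-activated site. The matches are a description of the letters and say nothing of binding in these cells.

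B2M, the light chain shared by all class I molecules, differed little between the surfaces in its bright probe sets. The probe set 201891_s_at had 13518 on plastic and 12875 on Myogel, and 216231_s_at had 13444 and 11519. Both were lower on Myogel, at log2 FCs of -0.07 and -0.22, and both lay inside the range of -0.23 to 0.14 for their signal. The dim 232311_at had 53.0 on plastic and 32.7 on Myogel, 1.62-fold lower, well inside the wide range of -1.45 to 1.56 at its signal. The values of B2M thus stayed inside the spread of probe sets of like signal.

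The transporter subunits stayed close to their values on plastic. TAP1 was measured by 1 probe set, with 1356 on plastic and 1272 on Myogel, at a log2 FC of -0.09 (0.01 with the median log2 ratio of all probe sets set to 0). TAP2 had 2706 on plastic and 3005 on Myogel in 204769_s_at, and 1099.6 and 1247 in 225973_at, with log2 FCs of 0.15 and 0.18. These were the only class I probe sets with a higher value on Myogel, and neither left the range of its signal class. The dimmer probe sets of TAP2 had lower values on Myogel, with 116 on plastic and 85.6 on Myogel for 204770_at, and 10.8 and the floor of 1 for 208428_at. Since the floor has no fixed meaning, no fold is given for the latter. The mean log2 FC over the 4 probe sets of TAP2, into which the floor enters, was -0.89, so that the direction for this gene depends on which probe sets are read.

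The immunoproteasome subunits had nearly equal values on both surfaces. PSMB8, which replaces PSMB5, had 2438 on plastic and 2195 on Myogel, at a log2 FC of -0.15. PSMB9, which replaces PSMB6, had 3618 on plastic and 3517 on Myogel, at -0.04. Neither value was outside the spread of equally bright probe sets, which spanned -0.40 to 0.37 and -0.35 to 0.33. PSMB8, PSMB9, TAP1 and TAP2 are 4 adjacent protein-coding genes in the RefSeq annotation, and the promoter windows of TAP1 and PSMB9, which are read in opposite directions, overlap by 13 bases.

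**Figure D2:**
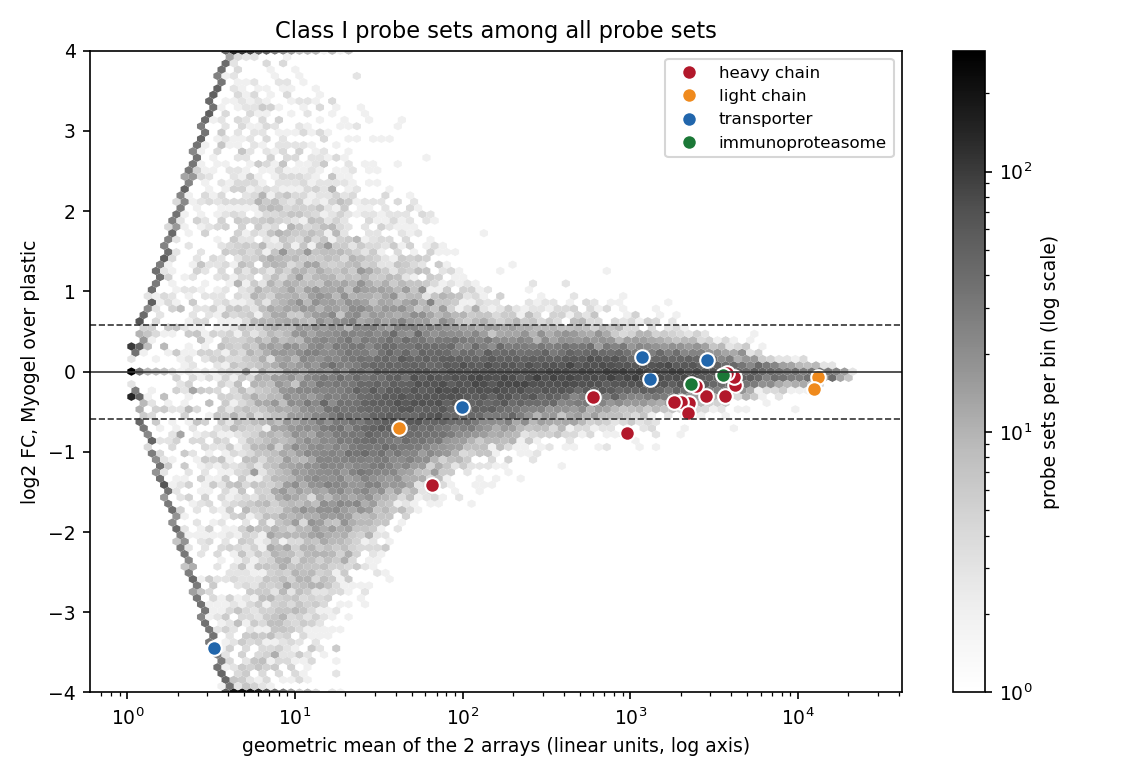
Difference between the surfaces as log2 FC (y axis, cropped at 4 in either direction with values beyond drawn at the edge) by signal, the geometric mean of both arrays (x axis, linear units on a log scale), for all 54613 probe sets (grey, darker with more probe sets) and the 23 class I probe sets (coloured by role). Dashed lines mark FC 1.5. Most heavy chain points (red) lie below 0 at the lower side of the grey band, while the other bright class I points lie near 0.

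Because the spread between the arrays shrinks as the signal grows, the bright probe sets were also read on their own. Of 17 class I probe sets with a geometric mean of 1000 or more, 15 were lower on Myogel as deposited, while 56.8% of all 7103 probe sets this bright were lower. When the median log2 ratio of all probe sets was set to 0, these became 10 of 17 (8 of 10 for the heavy chains and 2 of 7 for the others) and 30.2%. The 10 bright heavy chain probe sets were all lower as deposited, with a median log2 FC of -0.30 and values from -0.52 to -0.02, while the median over all bright probe sets was -0.03. With FC 1.2 or more, 6 of these 10 were lower and 0 were higher, against 8.79% of the bright probe sets lower. The other 7 bright class I probe sets, of B2M, TAP1, TAP2, PSMB8 and PSMB9, had a median of -0.07, and 0 of them reached FC 1.2 in either direction as deposited. With the median log2 ratio of all probe sets set to 0, HLA-B 209140_x_at and HLA-C 214459_x_at fell inside FC 1.2, at -0.21 and -0.19. Under that scaling TAP2 225973_at stood at 0.29, past FC 1.2 upwards. Of 909 bright _x_at probe sets other than the members, 500 were lower and 409 were higher, with a median of -0.02. The heavy chain probe sets may detect each other's transcripts, so they are not 10 separate measurements.

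The scale of the arrays bears on differences this small. The deposited values have a median log2 FC of -0.11 over all probe sets and -0.03 over the bright ones. After quantile normalization 50.5% of all probe sets were lower on Myogel, and after loess centring 50.4%. The brightest probe set of HLA-E stood at 0.00 under both. Of the 13 heavy chain probe sets, 12 were still lower, with medians of -0.30 and -0.29. When the median log2 ratio of all probe sets was set to 0 instead, which moves the median of the bright ones to 0.08, 11 were lower, with a median of -0.21, and the exceptions were HLA-E 200905_x_at and HLA-C 216526_x_at. Under that scaling HLA-E, B2M, TAP1 and PSMB9 had log2 FCs of 0.09, 0.04, 0.01 and 0.07 in their brightest probe sets, on the other side of 0 from the values as deposited. In the brightest probe set, HLA-B, HLA-C, HLA-F and PSMB8 stayed lower and TAP2 stayed higher under these 3 scalings.

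**Figure D3:**
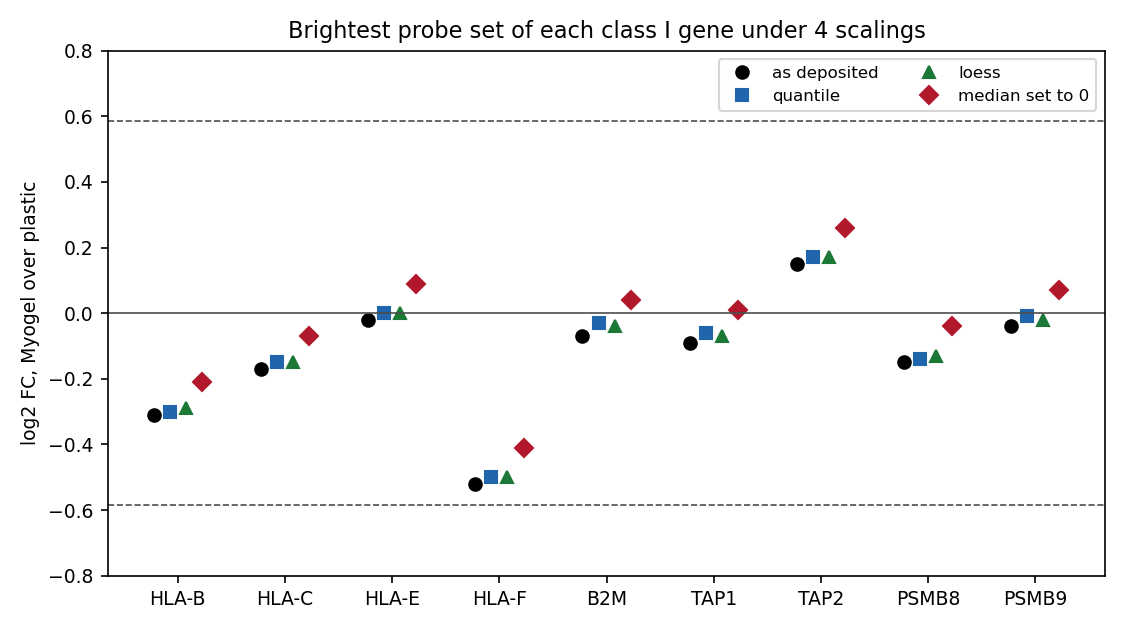
Log2 FC between the surfaces (y axis, Myogel relative to plastic) of the brightest probe set of each class I gene (x axis) with the values as deposited and under 3 scalings, with dashed lines at FC 1.5. HLA-B and HLA-F lie lowest under each scaling, at -0.21 or less, and the points of HLA-E, B2M, TAP1 and PSMB9 lie on both sides of 0 or at it.

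The other genes that supply and load peptides stayed within FC 1.5 in their brightest probe set. Of 19 measured genes for other proteasome subunits, their activators, an inhibitor and an assembly factor, 0 passed FC 1.2 in either direction, with a median log2 FC of -0.02 and a range from -0.20 to 0.13. PSMA3, a subunit of the outer ring of the proteasome, had the largest difference, with 10088 on plastic and 8753 on Myogel. Its dimmer probe sets differed more, with 247.5 and 168.6 in one and 39.9 and 17.8 in the other, at log2 FCs of -0.55 and -1.16. Of 18 measured genes for trimming and loading of peptides, 0 passed FC 1.5, while FC 1.2 was passed by 1 upwards and 2 downwards, and the median was -0.01. After quantile normalization or loess centring, FC 1.2 was passed by 1 upwards and 0 downwards. TAPBPL, a peptide editor related to tapasin, had 227 on plastic and 178 on Myogel, a log2 FC of -0.35 inside the range for its signal, while its second probe set had 228 and 152, at -0.59. Tapasin itself (TAPBP), added once its values were known, had 1719 on plastic and 1420 on Myogel, with 1 of its 3 probe sets higher. The chaperones CALR, with 4854 on plastic and 5183 on Myogel, and PDIA3, with 6953 and 6899, likewise singled out, were level within FC 1.2.

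Genes that regulate class I transcription went both ways. Among 31 measured genes, FC 1.5 was passed by 1 upwards and 2 downwards, FC 1.2 by 5 and 6, and the median log2 FC was -0.01. Over all genes FC 1.5 was passed by 9.71% upwards and 17.5% downwards, and FC 1.2 by 18.1% and 30.8%. The counts at FC 1.5 were 2 and 1 after loess centring, and 0 and 0 with an offset of 50 or with a difference of 100 linear units required. IRF8, a transcription factor of the interferon response best known from blood cells, was 1.57-fold higher, with 165 on plastic and 259 on Myogel, and its log2 FC of 0.65 lay just above the range of -0.79 to 0.60. The lower ones were dim, below the median signal of 142 over genes, and were named after their values were seen. NLRC5, the transactivator of class I genes, had 106 on plastic and 64.7 on Myogel from 1 probe set. Its log2 FC of -0.72 lay inside the range of -1.08 to 0.96 for its signal. NFKB2 had 36.8 and 18.7, also inside its range, and 1 of its 3 probe sets was higher. Further genes of the interferon response were singled out in the same way. JAK1, a kinase bound to interferon receptors, had 1763 on plastic and 2383 on Myogel, above the range for its signal, but 2 of its 5 probe sets were lower. IRF1, an interferon-induced activator of class I genes, had 1406 on plastic and 1214 on Myogel, and the interferon gamma receptor chains IFNGR1 and IFNGR2 had 2858 and 2560, and 2368 and 2017. IRF1, IFNGR1 and IFNGR2 each lay inside the range for their signal.

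Among class I-like proteins and ligands of natural killer cells, FC 1.5 was passed by 1 of 13 measured genes upwards and 2 downwards. Over all genes it was passed by 9.71% and 17.5%. The median log2 FC of the 13 genes was 0.01, and each of them past FC 1.5 was below the median signal over genes. MICA, a stress-induced ligand of the receptor NKG2D, had the largest difference at or above this signal, 1.38-fold higher with 269 on plastic and 370 on Myogel, a difference within the spread at that signal. The non-classical heavy chain HLA-G, picked out once its values were known, had 2936 on plastic and 2219 on Myogel in its brightest probe set and was lower in all of its 4 probe sets, and the log2 FC of -0.40 lay below the range of -0.38 to 0.38. HLA-G resembles the other heavy chains in sequence, and the values do not separate what its probes may share with them.

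**Figure D4:**
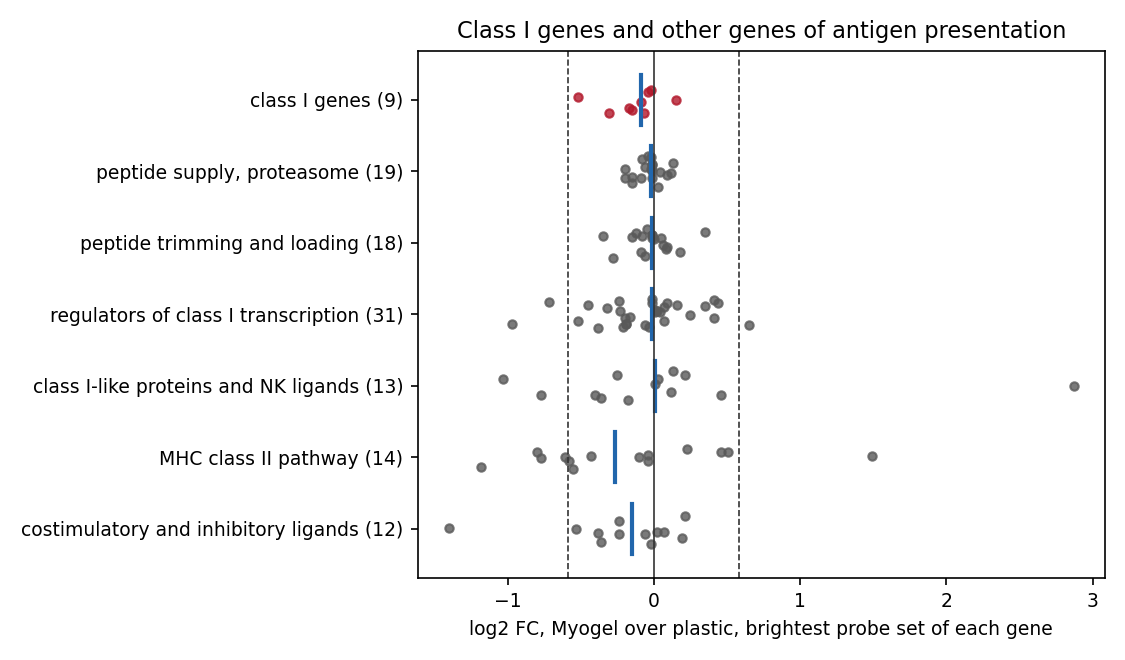
Log2 FC between the surfaces (x axis, Myogel relative to plastic) of the brightest probe set of each gene (points, spread vertically for legibility) for the 9 class I genes and 6 lists of related genes (y axis, with the number measured), with blue bars at the medians and dashed lines at FC 1.5. The proteasome and loading genes lie within FC 1.5, with medians of -0.02 and -0.01, and of the points beyond it only IRF8 was at or above the median signal over genes.

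Markers of squamous epithelium, the labelled origin of the line, were bright on both surfaces, and 0 of 9 measured passed FC 1.5. KRT14, a keratin of basal squamous epithelium, had 18856 on plastic and 18224 on Myogel, and SFN, an epithelial 14-3-3 protein, had 16249 and 16390. Leukocytes, which express class I genes strongly, had 8 measured markers, with a summed intensity of 733 on plastic and 682 on Myogel. Their brightest members were CD14, with 298 and 302, and CD3D, with 108 and 134, and the pan-leukocyte marker PTPRC had 27.2 and 21.0. The summed intensity was 1194 and 1214 for 7 smooth muscle markers, with ACTA2 (703 and 756) and SYNPO2 (203 and 172) the brightest, 785 and 779 for 8 fibroblast markers, with COL1A1 (431 and 454) and DCN (119 and 91.2), and 489 and 360 for 6 endothelial markers, with PECAM1 (204 and 186) and KDR (97.5 and 63.5). FC 1.5 was passed downwards by 4 of 6 endothelial markers, 1 of 8 leukocyte markers, 1 of 7 smooth muscle markers and 0 of 8 fibroblast markers, and upwards by 1, 0, 1 and 1, against 17.5% and 9.71% of all genes. Each of the markers past FC 1.5 was below the median signal over genes. Among these, 1 marker, CNN1 of smooth muscle, stood at the floor of 1 on Myogel. The part of such cells in the class I values was not tested.

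Controls of RNA and labelling also differed between the arrays. The ratio of the 3′ to the 5′ probe set of ACTB was 3.19 on plastic and 6.10 on Myogel, and that of GAPDH was 1.10 and 1.22. The 20 probe sets of the poly-A spike-ins with values of 100 or more were all lower on Myogel, with a median log2 FC of -1.70, and 17 of 18 probe sets of the hybridisation spike-ins were lower, with a median of -0.36. The part of these differences in the class I values was not tested.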

How the data were processed

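RNA of HSC-3 cells on plastic and on Myogel was measured on Affymetrix U133 Plus 2.0 arrays, 1 per surface. The deposited values are linear intensities with a floor of 1. The authors analysed the arrays in dChip, whose version, model and scaling of the arrays to each other are not given in the sources used. The samples were grouped by their titles. A protocol label gives uncoated plates for both, which titles and source names contradict for Myogel.

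Of 54613 probe sets without the 62 controls, 41091 had 1 gene symbol in the platform annotation, updated by Entrez identifier through RefSeq (GRCh38.p14). FC was Myogel over plastic without further scaling, and each gene was read from its brightest probe set, by mean log2 value. The spread for a probe set is the range holding 95% of the 1000 nearest in mean signal. No test was possible with 1 array per surface, and the number of arrays limits the precision.

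The members, the lists and the alternatives were chosen with earlier results of these data known. Named genes were all members, in each list those with FC 1.5 or more (at most 3 in each direction) at or above the median signal or otherwise the one with the largest change, and the 2 brightest of each cell type. Listed genes without a probe set of their own were not analysed here. The alternatives were quantile normalization, loess centring (span 0.3), a median log2 ratio of 0, offsets of 16 and 50, FC 1.2 and FC 2, a difference of 100 linear units, a filter on low signal, leaving out probe sets with the suffix _x_at, _s_at or _a_at, and the mean over or any of a gene's probe sets. The limit of 1000 linear units and FC 1.2 combined with a scaling or with the mean over probe sets were added after the data were seen. Promoters were aligned globally with Biopython 1.88 (match 1, mismatch -1, gap opening -2 and extension -0.5). Functions were tested on simulated data. The tools were matplotlib 3.10.9, statsmodels 0.14.6, pandas 2.3.3, numpy 2.4.6 and Python 3.11.15.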

Additional observations from a re-analysis of the deposited data

How the results depend on the processing

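The count of class I genes that were higher on Myogel was 0 under each alternative run. The count of lower genes, 0 with the values as deposited, was 2 with FC 1.2, also after quantile normalization or loess centring, 5 with FC 1.2 and the mean over probe sets, 2 with FC 1.5 and that mean, and 4 if a single probe set sufficed. FC 1.2 was not counted with the median log2 ratio set to 0, where HLA-B stood at -0.21, inside FC 1.2, and HLA-F at -0.41, past it. With the probe sets ending in _x_at, _s_at or _a_at left out it was 2, of 5 genes that still had a probe set. The count of lower probe sets, 4 of 23 as deposited, was 12 with FC 1.2, also after quantile normalization or loess centring, 2 with FC 2, 2 with an offset of 50, 2 of 21 with the filter on low signal, 1 with a difference of 100 linear units, 3 of 7 with the suffixed probe sets left out and 0 of 17 with a geometric mean of 1000 or more. The median log2 FC of the 9 genes, -0.09 as deposited, was -0.33 with the mean over probe sets, and -0.32 for the 5 genes left after that omission, both of which draw on dimmer probe sets. The combinations with FC 1.2 and the limit of 1000 linear units were chosen after the data were seen. Among the related gene lists, the balance of calls at FC 1.5 turned for the regulators after loess centring (from 1 higher and 2 lower to 2 and 1) and for class II genes after quantile normalization or loess centring (from 1 and 4 to 3 and 2). With an offset of 50 it also turned for class II genes (from 1 and 4 to 1 and 0). Class I-like genes went from 1 and 2 to 1 and 0 with that offset. For costimulatory and inhibitory ligands it turned with the suffixed probe sets left out (from 0 and 1 to 1 and 0). No paired analysis was possible because each surface has 1 array. No replicate could be left out for the same reason. Without replicates the smallest difference that the arrays can show is not known. The range for a probe set's signal is a spread over many probe sets and does not measure it.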

Other observations

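Genes of the MHC class II pathway, which presents peptides from outside the cell and is usually confined to professional antigen-presenting cells, were mostly dim. Of 14 measured genes, 5 were at or above the median signal over genes, FC 1.5 was passed by 1 upwards and 4 downwards, against 9.71% and 17.5% of all genes, and the median log2 FC was -0.26. The balance turned to 3 upwards and 2 downwards after quantile normalization or loess centring, and to 1 and 0 with an offset of 50. HLA-DOA, a modulator of class II peptide loading, had the largest difference among the brighter ones, with 584 on plastic and 400 on Myogel, a difference within the spread at that signal, and 2 of its 5 probe sets were higher. Singled out once the values were known, the invariant chain CD74 had 207 on plastic and 153 on Myogel, and CIITA, the transactivator of class II genes, had 16.4 and 23.3.

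Of 12 measured costimulatory and inhibitory ligands of T cells and natural killer cells, FC 1.5 was passed by 0 upwards and 1 downwards. Over all genes it was passed by 9.71% and 17.5%. The median log2 FC of the 12 genes was -0.15, and with an offset of 16 or 50 FC 1.5 was passed by 0 in either direction. TNFRSF14, a ligand of the inhibitory receptor BTLA, had the largest difference at or above the median signal, with 167 on plastic and 141 on Myogel. CD274, which encodes the checkpoint ligand PD-L1, had 225 on plastic and 223 on Myogel, and CD47, a signal against phagocytosis, had 6008 and 6098, both singled out after their values were seen. Of the 7 probe sets of CD47, 5 were lower on Myogel.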
